A study of Mus musculus with 16 samples.

Results

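The transcripts of the 3 peroxisome proliferator-activated receptors (Ppara, Ppard and Pparg), of the 3 retinoid X receptors (Rxra, Rxrb and Rxrg) and of 3 of their coregulators (Ncor1, Nrip1 and Ppargc1b) were followed in gastrocnemius, a muscle of the calf, on 16 arrays. Every probe besides controls whose gene name on the array was that of one of these 9 genes was taken, which gave 21 of 41174 probes and 9 of 27745 gene names. Of these, 19 had on average at least 2 times the background in both channels and were tested together with the other probes that passed, 19398 in all. The remaining 2 probes, the only probe for Ppard and 1 of 7 for Ncor1, are given from the same fit without this filter.

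Male C57BL/6N mice were 3 months old when the diets began and ate them for 8 weeks. Both groups received cHF, a high-fat diet made mainly with corn oil, with rosiglitazone, an agonist of PPARγ, at 10 mg per kg diet. The 8 cHF+ROSI mice received nothing else. The diet of the other 8, the cHF+F+ROSI mice, also held n-3 LC-PUFA, the long-chain polyunsaturated fatty acids of marine oil, as a concentrate in place of 15% of its lipids. All mice were fasted for 10 h, re-fed Chow overnight and killed the next morning, so that all values belong to this re-fed state, and no mice without rosiglitazone were among these arrays.

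PPARs are nuclear receptors for fatty acids and their derivatives. They bind DNA as dimers with an RXR, recruit corepressors such as NCOR1 and NRIP1 (RIP140) or coactivators such as PGC-1β, the product of Ppargc1b, and so set the expression of genes of lipid uptake, storage and oxidation. In muscle, PPARα and PPARδ are known for the control of fatty acid oxidation and PPARγ is the receptor of adipocytes, while NRIP1 and NCOR1 are known to restrain and PGC-1β to favour oxidative metabolism. The comparison asked whether n-3 LC-PUFA added to low-dose rosiglitazone went along with other transcript levels of this receptor system.

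On each array the RNA of 1 mouse was labelled with Cy5 and a reference pool, the same on all arrays, with Cy3, so that each value is log2(Cy5/Cy3) and a difference is cHF+F+ROSI less cHF+ROSI. No dyes were swapped. Each of 4 slides held 4 arrays. Positions 1 and 3 always carried cHF+ROSI and positions 2 and 4 cHF+F+ROSI samples, so that position and diet cannot be told apart. Array by array, the median Cy5 signal was 2.98 to 3.64 times background, apart from cHF+ROSI replicate 1, the dimmest, at 2.33. The median in Cy3 lay between 1.78 and 2.02 over the 16 arrays. Markers of muscle, adipocytes, macrophages and slow fibres were all well above background on every array. The slow-fibre markers were lowest in cHF+F+ROSI replicate 2, with a mean log2 ratio of -2.27 against -1.23 to 0.61 in the cHF+ROSI mice. In bulk muscle, fewer cells of a type and less RNA per cell cannot be told apart.

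The diet difference of the receptors and coregulators was small for 18 of the 19 tested probes. Among these 19 are the Ncor1 probes A_51_P457744 and A_52_P357298, which lie on the strand opposite to the gene. In limma, a Nrip1 probe was the 1 of 19 (5.26%) with an unadjusted p of up to 0.05, whereas 10.3% of all 19398 probes did (1037 higher and 956 lower in the cHF+F+ROSI mice). After Benjamini-Hochberg adjustment over all probes, 0 of 19 passed 0.05, compared with 0.0825% of all probes (16 probes). Leaving out single arrays gave 1 to 4 of the 19 at the unadjusted p (4 without cHF+ROSI replicate 8 or cHF+F+ROSI replicate 4). Without cHF+ROSI replicate 8, 2214 of all 19398 probes had such a p. After adjustment, leaving out single arrays gave 0 or 1 of the 19 (1, and 15 of all probes, without cHF+F+ROSI replicate 1). The log2 differences of the 19 probes ran from -0.26 to 0.40, 11 of them positive and 8 negative. Their median size was 0.08, beside 0.06 over all tested probes, and their median SD within a group was 0.18, beside 0.13. The 95% confidence intervals of all 19 lay within a 1.5-fold change in either direction, as for 18776 of all 19398 tested probes. These ratios came after a background correction that shrinks those of weak probes. The intervals therefore do not limit the change of the transcript itself. For none of the 19 did the groups separate completely, as they did for 0.161% of the 19264 probes that every array measured.

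**Figure D1:**
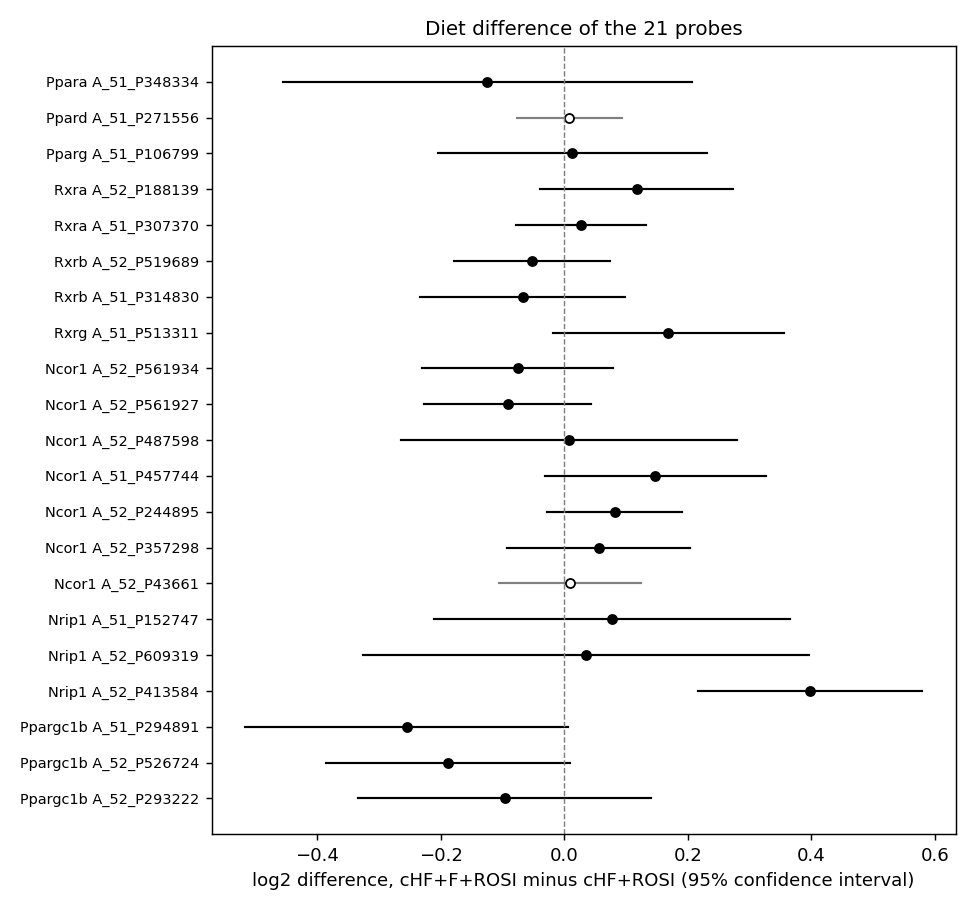
Log2 difference, cHF+F+ROSI less cHF+ROSI (x axis), of each of the 21 probes (y axis, gene and probe name), with the 95% confidence interval from limma over 8 arrays a group; open circles with grey bars are the 2 probes that did not pass the filter. The interval of Nrip1 A_52_P413584, from 0.22 to 0.58, is the only one that leaves out 0.

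Ppara encodes PPARα, the receptor that drives fatty acid oxidation in muscle and liver. Its probe (A_51_P348334, chromosome 15, 85629291 to 85629350 of mm8, in 10 spots on each array) was well above background in both channels of all 16 arrays. The log2 ratio was -1.39 in the lowest cHF+ROSI mouse, -0.71 at the median and -0.28 in the highest. In the cHF+F+ROSI mice the corresponding values were -1.61, -0.85 and -0.40, so that the ranges overlapped along nearly their whole length. The difference was -0.12 (SE 0.157, 95% confidence interval -0.46 to 0.21, limma adjusted p = 0.817). The SD of Ppara within a group, 0.34 in the cHF+ROSI and 0.35 in the cHF+F+ROSI mice, was at the 95.4th percentile of all tested probes. The median SD between its spots on the same array was 0.0561. Each mouse had an array of its own, so that the spread between mice also holds that between arrays. The difference was -0.02 without cHF+F+ROSI replicate 2, -0.06 without cHF+ROSI replicate 1 and 0.05, of the opposite sign, without both. It was -0.21 without cHF+ROSI replicate 8.

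Ppard encodes PPARδ, which also acts on oxidative genes in muscle. Its only probe (A_51_P271556, chromosome 17, 28027240 to 28027299) was barely measured on these arrays. The mean Cy5 signal was 1.93 times and the Cy3 signal 1.73 times background, and the Cy5 signal was well above background on 1 of 16 arrays and the Cy3 signal on 3. Without the filter the log2 ratio ran from -0.26 to -0.04 in the cHF+ROSI and from -0.28 to -0.07 with n-3 LC-PUFA, a difference of 0.01 (SE 0.0405). With both signals so near background, a change in Ppard was not detectable with this probe.

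Pparg encodes PPARγ, the target of rosiglitazone, which both groups received. Its probe (A_51_P106799, chromosome 6, 115455814 to 115455873, 10 spots) was well above background on all 16 arrays in both channels. The log2 ratio was -0.36 in the lowest, -0.21 in the median and 0.30 in the highest cHF+ROSI mouse. The cHF+F+ROSI mice had -0.40, -0.21 and 0.29, nearly the same values. The difference was 0.01 (SE 0.104, 95% confidence interval -0.20 to 0.23, limma adjusted p = 0.982), and its sign turned when single arrays were left out, with values from -0.05 to 0.08. The SD within a group was 0.217 and 0.230, and the median SD between spots of the same array was 0.0576.

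**Figure D2:**
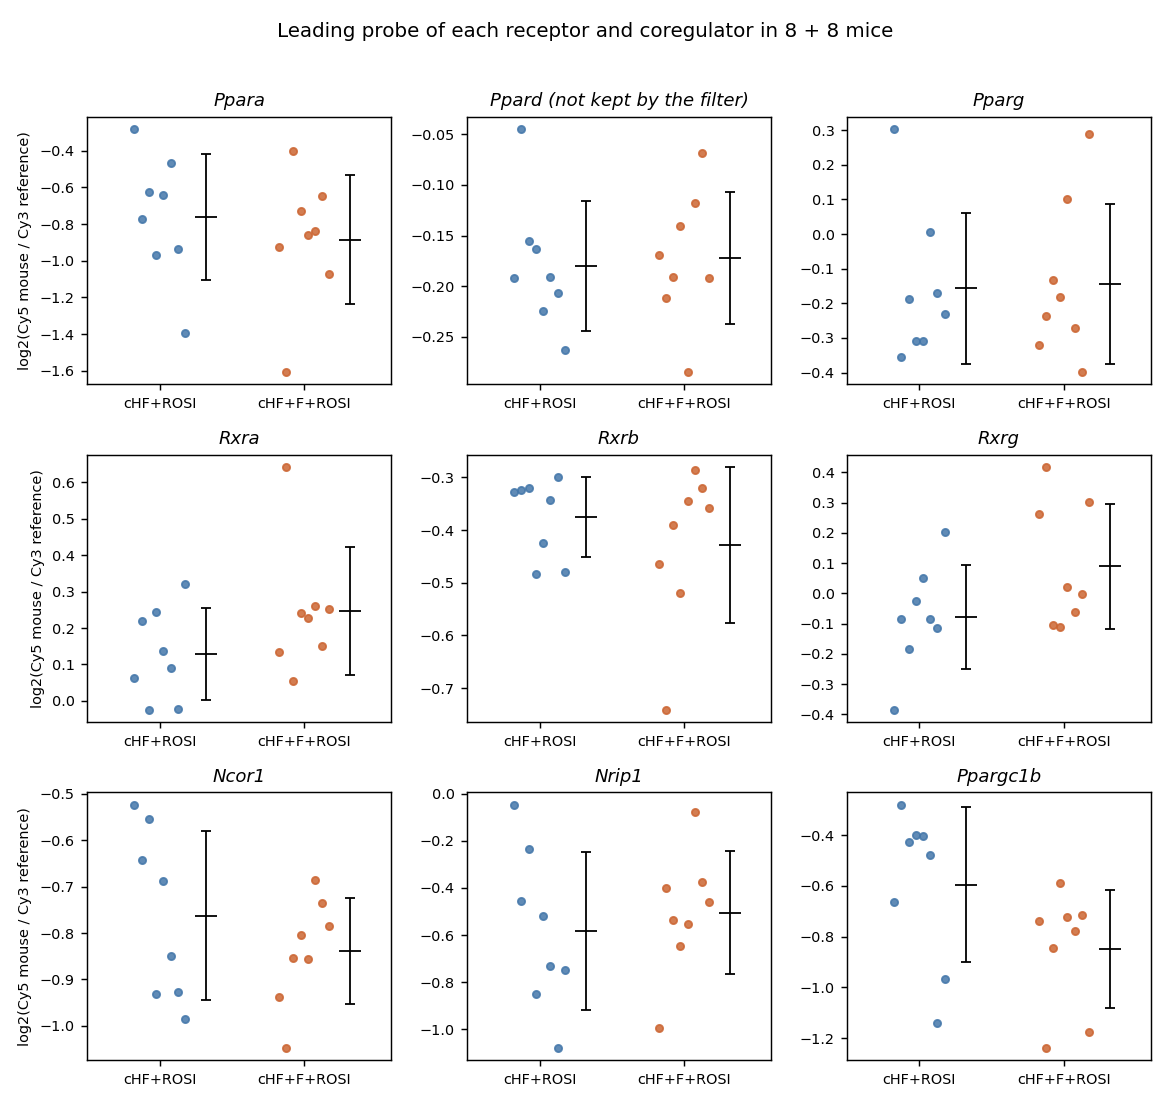
Log2(Cy5 mouse/Cy3 reference) of the brightest probe of each of the 9 genes (y axis, a scale of its own in each panel) in each cHF+ROSI and cHF+F+ROSI mouse (x axis); points are mice, and the horizontal mark with its bar is the mean ± SD (n = 8). The groups overlap in every panel, and the cHF+F+ROSI mouse with the highest Rxra value, 0.64, is replicate 2.

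The retinoid X receptors are the partners with which PPARs and several other nuclear receptors bind DNA. Rxra encodes RXRα. By its brightest probe (A_52_P188139, chromosome 2, 27584900 to 27584959), the log2 ratio was -0.02, 0.11 and 0.32 in the lowest, median and highest cHF+ROSI mouse and 0.06, 0.23 and 0.64 in the cHF+F+ROSI mice. The difference was 0.12 (SE 0.0741, limma adjusted p = 0.601), with 7 of 8 cHF+F+ROSI values over the mean of cHF+ROSI. It was 0.06 without cHF+F+ROSI replicate 2, the mouse at 0.64. A dimmer probe of Rxra (A_51_P307370, 27581805 to 27581864) had a difference of 0.03 and did not follow the first over the mice (r = -0.24 after removal of the group means, n = 16).

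Rxrb, which encodes RXRβ, differed little by either probe. The brighter one (A_52_P519689, chromosome 17, 33648505 to 33648564) ran from -0.48 to -0.30 in the cHF+ROSI mice, with a median of -0.34, and from -0.74 to -0.29, with a median of -0.37, in the cHF+F+ROSI group. The difference was -0.05 (SE 0.0599), and -0.0078 without cHF+F+ROSI replicate 2. The other probe (A_51_P314830, which spans 33647199 to 33647373) had -0.07, and the probes rose and dropped together over the mice (r = 0.79). The lowest mouse by both probes was again cHF+F+ROSI replicate 2, at -0.74 and -1.11.

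Rxrg encodes RXRγ, the form found mainly in muscle and brain. Its probe (A_51_P513311, chromosome 1, 169476168 to 169476227) gave -0.39, -0.09 and 0.20 in the lowest, median and highest cHF+ROSI mouse and -0.11, 0.01 and 0.42 in the cHF+F+ROSI mice. The difference of 0.17 (SE 0.0892, 95% confidence interval -0.02 to 0.36) was 1.12-fold, with 6 of 8 cHF+F+ROSI values over the mean of cHF+ROSI, and had an unadjusted p of 0.0750 and an adjusted p of 0.528 in limma. Within the slides, of 2 mice a group each, it was 0.39, 0.06, -0.01 and 0.24. With single arrays left out it ran from 0.12, without cHF+F+ROSI replicate 2, to 0.21, without cHF+ROSI replicate 8. The unadjusted p in limma was 0.163 and 0.0286 in these cases, 0.0467 without cHF+F+ROSI replicate 3 and 0.0448 without cHF+F+ROSI replicate 4. Without cHF+ROSI replicate 1 and cHF+F+ROSI replicate 2 together the difference was 0.08 (unadjusted p = 0.318), and with array quality weights 0.06 (unadjusted p = 0.381). With median centring it was 0.23 (unadjusted p = 0.0495 in limma) and in the table of the authors 0.24 (unadjusted p = 0.0550 in limma). By Cy5 alone it was 0.12 (unadjusted p = 0.184 in limma).

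Ncor1 encodes the nuclear receptor corepressor 1, which holds deacetylases at unliganded receptors. Of its 7 probes on chromosome 11, 3 match the RefSeq transcript and lie on the strand of the gene. By the brightest (A_52_P561934, which spans 62134177 to 62135571), the cHF+ROSI mice ran from -0.99 to -0.52 (median -0.77) and cHF+F+ROSI from -1.05 to -0.69 (median -0.83). The difference was -0.08 (SE 0.0738, limma adjusted p = 0.752). The neighbouring probe A_52_P561927 (62137342 to 62137401) had -0.09 and followed it closely over the mice (r = 0.94). The probe A_52_P487598 (62235836 to 62235895), towards the 5′ end of the gene, had 0.01.

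The other 4 Ncor1 probes were designed to cDNA clones. A_52_P244895 (62217919 to 62217978, same strand) had 0.08, with a mean Cy3 signal of only 2.57 times background. Its r to the 3 RefSeq probes over the mice was -0.55, -0.59 and, more weakly, -0.29. The remaining 3 probes lie on the strand opposite to the gene, and are not taken as measures of the Ncor1 transcript. The 2 that passed the filter are nonetheless among the tested probes counted above. Of these, A_51_P457744 (62143722 to 62143781) had 0.15 and A_52_P357298 (62141154 to 62141213) 0.06, and A_52_P43661 (62142463 to 62142522), which did not pass the filter, had 0.01. Set against the leading probe in the same mouse, A_51_P457744 was higher by 0.22 in the cHF+F+ROSI mice (SE 0.105, unadjusted p = 0.0478 and adjusted p = 0.609 in limma). The mean of all 6 probes listed under Ncor1 that passed the filter, which takes in 2 on the opposite strand, had a difference of 0.02.

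Nrip1 encodes NRIP1 (RIP140), a corepressor of nuclear receptors that restrains oxidative genes in muscle and fat. Its 3 probes lie on chromosome 16 on the strand of the gene. The brightest, A_51_P152747 (76173990 to 76174049), matches the RefSeq transcript. It gave -1.08, -0.62 and -0.05 in the lowest, median and highest cHF+ROSI mouse and -0.99, -0.50 and -0.08 in the mice given n-3 LC-PUFA, a difference of 0.08 (SE 0.137, limma adjusted p = 0.878). It ran from 0.0068 (without cHF+ROSI replicate 7) to 0.15 (without cHF+ROSI replicate 1) when single arrays were left out. A_52_P609319 (76234453 to 76234512), upstream and designed to a cDNA clone, had 0.04 (SE 0.172) with an SD within a group at the 96.4th percentile of all tested probes. By these 2 probes, the diets overlapped throughout.

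The third probe, A_52_P413584 (76170913 to 76170972), lies downstream of the brightest and was designed to another cDNA sequence. Its log2 ratio was 0.07, 0.40 and 0.53 in the lowest, median and highest cHF+ROSI mouse and 0.44, 0.75 and 1.13 in the cHF+F+ROSI mice. The cHF+ROSI mean lay below all 8 cHF+F+ROSI mice, although the lowest of them overlapped the upper cHF+ROSI mice. The difference of 0.40 (SE 0.0862, 95% confidence interval 0.22 to 0.58) was 1.32-fold, with an exact two-sided permutation p of 0.0006216. In limma its unadjusted p was 0.000224 and its adjusted p 0.0777. Within the slides, the difference was 0.34, 0.29, 0.59 and 0.38. The adjusted p ran from 0.0389 to 0.727 over the other ways of processing, and was 0.0492 without cHF+F+ROSI replicate 1.

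In Cy3, where every array carried the same pool, A_52_P413584 differed by -0.14 between the arrays of the groups (limma unadjusted p = 0.227), the largest such difference of the 19 probes. Its mean Cy3 signal was only 3.91 times background. The Cy3 signal was 93 on the array of cHF+F+ROSI replicate 2, or 1.94 times background, and between 148 and 197 on the other 15. On that array the Cy5 signal, 448, was also the lowest of the cHF+F+ROSI group, and the log2 ratio was 0.89. Without that mouse the difference of the ratios was 0.38 (limma adjusted p = 0.123). By Cy5 alone, with all 16 arrays, the difference between the diets was 0.28 (unadjusted p = 0.0947 in limma). In the Cy3 channel limma gave 671 of all 19398 probes an unadjusted p of up to 0.05, and 0 passed adjustment. The brightest Nrip1 probe was the 1 of 19 with such a p, with a Cy3 difference of 0.07 (unadjusted p = 0.0266).

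The Nrip1 probes were then compared within each mouse. The log2 ratio of A_52_P413584 less that of A_51_P152747 ran from 0.43 to 1.15 in the cHF+ROSI mice, and with the n-3 LC-PUFA from 1.19 to 1.43. The groups did not overlap, as for 0.0521% of all probe pairs of 1 gene. The difference was 0.32 (SE 0.0895), with an exact permutation p of 0.0001554, the smallest that 8 against 8 mice can give. In limma it had an unadjusted p of 0.00225 and an adjusted p of 0.409 over 5823 pairs of 4374 genes, of which 8.11% reached 0.05 before adjustment and 0 after it. Of 11 such pairs in the 9 genes, 2 had an unadjusted p of up to 0.05. They were this one and that of Ncor1 given above, which includes a probe on the opposite strand. Over the slides the difference was 0.55, 0.34, 0.19 and 0.19. The lowest cHF+ROSI value, 0.43, was that of replicate 1, the dimmest array, and without it the difference was 0.24 (adjusted p = 0.214). The groups also did not overlap without background correction and with processed signals, but they did in the other 5 ways of processing tried. By Cy5 alone the difference was 0.10 (exact permutation p = 0.665), with the high-background spots kept 0.31 (exact p = 0.0982) and in the table of the authors 0.25 (exact p = 0.0222). With median centring it was 0.28 (exact p = 0.00995) and with scaling between arrays 0.23 (exact p = 0.00357). The pair was singled out after its values were seen, and the part of the Cy3 signals in the difference was not tested.

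**Figure D3:**
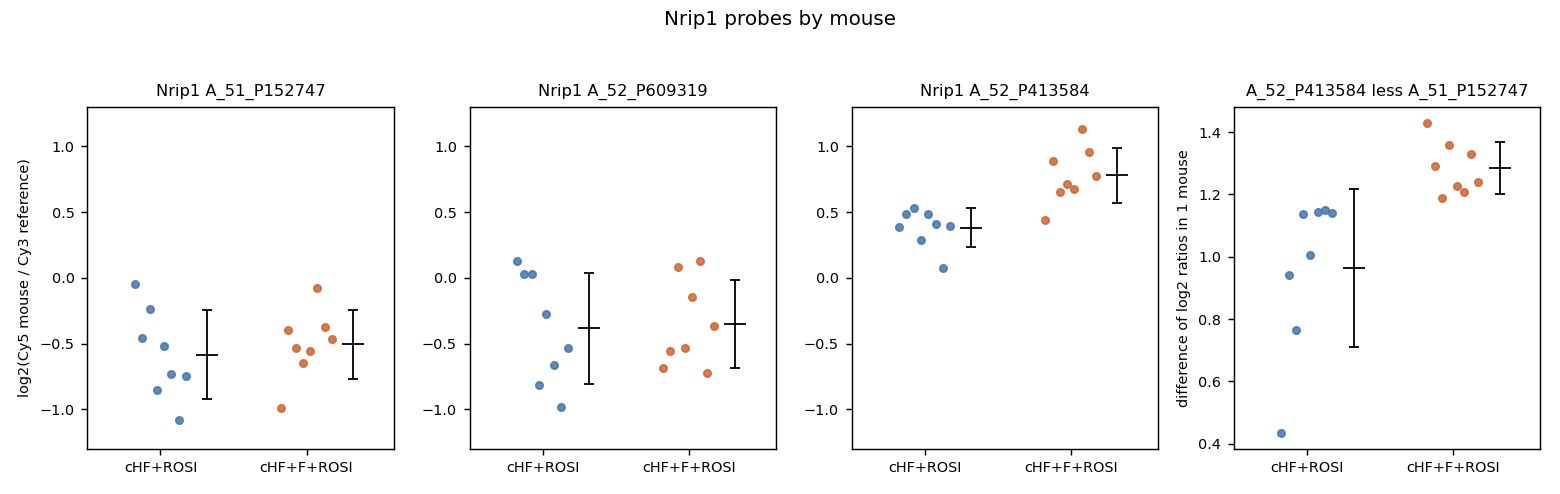
Log2(Cy5 mouse/Cy3 reference) of the 3 Nrip1 probes (left panels, a common y axis) and the difference of A_52_P413584 and A_51_P152747 in the same mouse (right panel, an axis of its own) in the cHF+ROSI and cHF+F+ROSI mice; points are mice and the mark with its bar is the mean ± SD (n = 8). The groups overlap for each probe, and in the right panel all cHF+F+ROSI mice, from 1.19, lie above the cHF+ROSI mice, which end at 1.15.

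Ppargc1b encodes PGC-1β, a coactivator of PPARs and oestrogen-related receptors that favours mitochondrial genes. It was lower on average in the cHF+F+ROSI mice by all 3 probes, but none passed the test. The strand of these probes was not checked against that of the gene. By the brightest (A_51_P294891), the log2 ratio was -1.14, -0.45 and -0.28 in the lowest, median and highest cHF+ROSI mouse and -1.24, -0.76 and -0.59 in the cHF+F+ROSI mice. The difference was -0.26 (SE 0.124, 95% confidence interval -0.52 to 0.01), or 1.19-fold lower, with 7 of 8 cHF+F+ROSI mice under the cHF+ROSI mean. Its unadjusted p was 0.0548 and its adjusted p 0.495 in limma. The probe A_52_P526724 had -0.19 (unadjusted p = 0.0610), with 8 of 8 mice under the cHF+ROSI mean, and A_52_P293222 had -0.10. The probes followed each other over the mice (r = 0.70 to 0.91), so they are not separate evidence. Within the slides the brightest probe gave -0.57, -0.24, -0.31 and 0.10. Without cHF+ROSI replicate 7, the lowest cHF+ROSI mouse, the difference was -0.33 with an unadjusted p of 0.00775 and an adjusted p of 0.265 in limma. The unadjusted p was also under 0.05 without cHF+ROSI replicate 8 (0.0221) or cHF+F+ROSI replicate 4 (0.0350). In the other direction, the difference was -0.20 without cHF+F+ROSI replicate 2 (unadjusted p = 0.117 in limma), -0.21 without cHF+ROSI replicate 2 and -0.21 without cHF+F+ROSI replicate 8. Over 16 other settings the difference ran from -0.30, with processed signals, to -0.17, with scaling between arrays (unadjusted p = 0.151 in limma). In 4 of these settings the unadjusted p in limma was under 0.05. It was 0.0195 with the slide as a block, 0.0149 with array weights, 0.0434 with processed signals and 0.0490 with the replicate number as a block. The smallest adjusted p was 0.242.

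The genes around the receptors were described by 5 lists, of coactivators, corepressors, other partner receptors of RXR, partner factors of PGC-1 and PPAR target genes in muscle. With the brightest probe of each gene, 58 of 63 genes were tested. At an unadjusted limma p of up to 0.05, 3 of these were higher and 4 lower with n-3 LC-PUFA (12.1%, beside 10.3% of all probes), and 0 passed adjustment (smallest adjusted p 0.215). The median difference over the 58 genes was -0.03, beside 0.00 over all probes.

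Among 12 coactivators, 1 was higher and 2 were lower at this unadjusted p (25%, beside 10.3% of all probes). Lpin1, which encodes lipin 1, a phosphatidate phosphatase that also works with PGC-1α and PPARα, had 0.27 (limma adjusted p = 0.254). Cited2, a CBP/p300-binding transactivator, had -0.41 (limma adjusted p = 0.277) and Carm1, an arginine methyltransferase, -0.16 (adjusted p = 0.410). Ppargc1a, which encodes PGC-1α, had 0.19 (limma adjusted p = 0.680), opposite in sign to Ppargc1b, and Med1, the Mediator subunit that contacts nuclear receptors (listed under its older name Pparbp), had -0.05. The difference between Ppargc1a and Ppargc1b was not tested.

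Among 11 corepressors, 1 was higher and 2 were lower at the same unadjusted p (27.3%, beside 10.3% of all probes). Hdac2, a histone deacetylase, had 0.27 (limma adjusted p = 0.215). Sirt1, an NAD-dependent deacetylase that acts on PGC-1α, had -0.33 (limma adjusted p = 0.359) and Ctbp2, which binds NRIP1, -0.12 (adjusted p = 0.472). Hdac3, the deacetylase that NCOR1 recruits, had -0.09. Of the 7 tested partner receptors of RXR and the 9 partner factors of PGC-1, 0 reached this p, with medians of -0.04 and -0.01, and Esrra, the oestrogen-related receptor α, had 0.02.

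Of 19 tested PPAR target genes, 1 had an unadjusted p of up to 0.05 (5.26%, beside 10.3% of all probes). It was Cpt1b, the muscle form of the carnitine palmitoyltransferase that admits fatty acids to mitochondria, with 0.14 (unadjusted p = 0.0303, adjusted p = 0.428 in limma). The median of the list was -0.02 and its genes ran from -0.32 to 0.28.

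From mouse to mouse, Ppara and Rxrg varied with slow-fibre markers and Pparg with fat markers. Of 7 relations examined, which did not include Rxra, Rxrb or Ncor1, 3 had a Benjamini-Hochberg adjusted permutation p under 0.05. Ppara followed the mean of 9 slow-fibre markers such as Myh7 and Tnni1 (Pearson r = 0.87, permutation p = 4e-05, adjusted p = 0.00028; Spearman rho = 0.81, p = 0.00027; 16 mice). It did so in the cHF+ROSI mice (r = 0.80) and in the cHF+F+ROSI mice (r = 0.94). Without the mice at the low end of the markers, cHF+F+ROSI replicate 2 and cHF+ROSI replicate 8, r was 0.67 (permutation p = 0.00872). The mouse with the lowest Ppara value of each group, at -1.61 and -1.39, was also the one with the lowest slow-fibre markers, at -2.27 and -1.23.

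Rxrg ran the other way, with r = -0.75 to the slow-fibre markers (permutation p = 0.00074, adjusted p = 0.001727; rho = -0.65, p = 0.00766). Within the diets r was -0.77 and -0.70, and without the same 2 mice -0.54 (permutation p = 0.0455). Of these mice, cHF+F+ROSI replicate 2 had the highest Rxrg ratio, 0.42. On its array the Cy3 signal of the Rxrg probe, 6491, was the lowest of all arrays. The Cy5 signal, 44896.8, was the lowest of its group. The part of the Cy3 signal in this relation was not tested. Ppara and Rxrg themselves had r = -0.83 after removal of the group means, and -0.69 without the dimmest array and cHF+F+ROSI replicate 2. The slow-fibre markers had a median gene difference of -0.45 between the diets and overlapped between them, and 0 of 9 reached an unadjusted limma p of 0.05 or an adjusted one. Their part in the values of Ppara and Rxrg was not tested beyond these relations.

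Ppargc1b had r = 0.49 to the slow-fibre markers (permutation p = 0.0506), which was 0.08 without the 2 mice at the low end, so that the relation rests on them. Ppard and Nrip1 had r of 0.19 and 0.06 (permutation p = 0.476 and 0.83). With the Ppard probe so near background its relation could not be judged, and Nrip1 was taken by its brightest probe only.

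Pparg followed the mean of 10 adipocyte markers such as Adipoq and Plin1 (r = 0.77, permutation p = 0.00018, adjusted p = 0.00063; rho = 0.79, p = 4e-04). The relation was r = 0.70 in the cHF+ROSI and 0.85 in the cHF+F+ROSI mice, and 0.69 once the 2 mice most distant from the median marker value were left out (permutation p = 0.00371). The adipocyte markers ran from -0.86 to 0.29 in the cHF+ROSI and from -1.09 to 0.73 with n-3 LC-PUFA, and all 10 were well above background on every array. With macrophage markers Pparg had r = -0.28 (permutation p = 0.303). The source of the Pparg signal within the tissue was not tested.

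**Figure D4:**
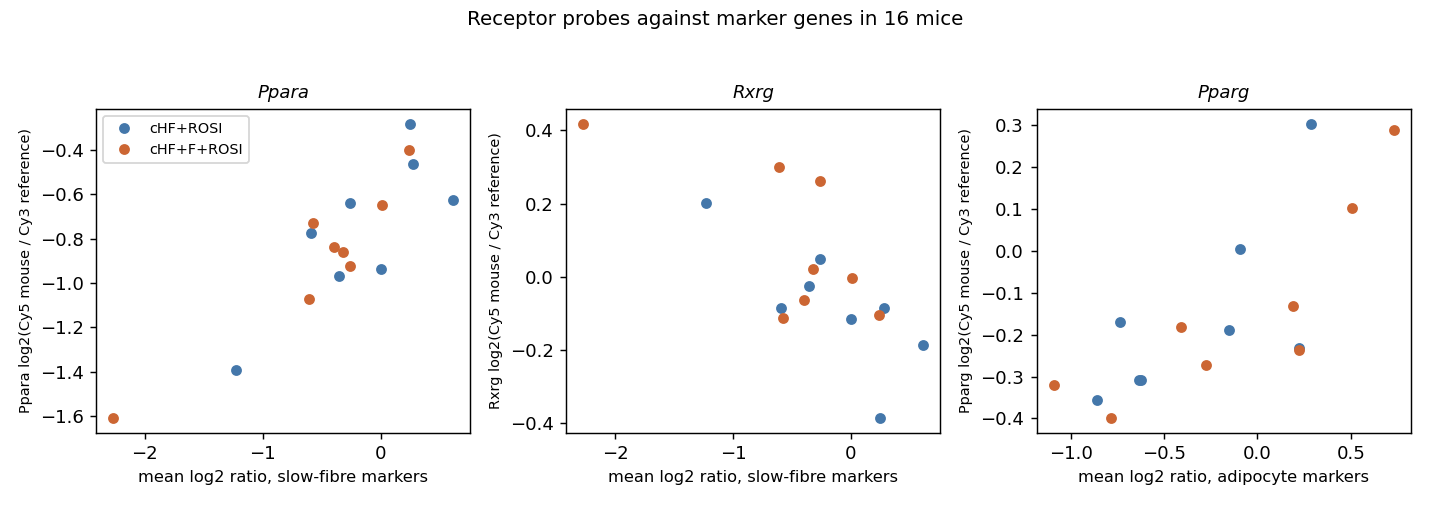
Log2(Cy5 mouse/Cy3 reference) of Ppara, Rxrg and Pparg (y axes) against the mean log2 ratio of the slow-fibre or adipocyte markers (x axes) in 8 cHF+ROSI and 8 cHF+F+ROSI mice; each point is a mouse. Ppara rises (r = 0.87) and Rxrg drops (r = -0.75) with the slow-fibre markers, and Pparg rises with the adipocyte markers (r = 0.77).

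The probes most like each gene over the 16 mice, after removal of the group means, were searched among 19264 probes, and are given as a description. For Ppara they were Fxyd6 (r = 0.91), Myh7, the slow myosin heavy chain (r = 0.91), and Pold1 (r = 0.90). For Pparg they were Fabp4, the fatty acid binding protein of adipocytes (r = 0.92), Nrg4 (r = 0.91) and Phgdh (r = 0.88). Myh7 and Fabp4 are also members of the marker lists used above. Ppargc1b was most like 1810073N04Rik (r = 0.88), Myh2, the myosin of fast oxidative fibres (r = 0.86), and Ppm1b (r = 0.84).

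Rxra was closest to Med25 (r = 0.94), 1110013L07Rik and 4933439F18Rik, and Rxrb to Gorasp2 (r = 0.92) and Tgm2. Rxrg was closest to Usp4 (r = 0.90) and Hps5. Ncor1 was closest to Specc1l (r = 0.92), Dhx38 and Mbnl2, and Nrip1 to Eif2c2 (r = 0.91), Trp53bp2 and Cdc73. The corepressors Ncor1 and Nrip1 followed each other over the mice (r = 0.78, and 0.86 without the 2 arrays that stand apart), whereas Ppara and Rxra ran in opposite directions (r = -0.78, and -0.63 without them). All of these correlations share arrays, loess curves and the reference pool.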

How the data were processed

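The gastrocnemius RNA of 16 mice was hybridised to two-colour Agilent arrays by the authors, who deposited the spot intensities and flags of each array (Feature Extraction 10.5.5.1 per the labels, 10.5.1.1 per the file headers, with mm8 positions) and a table of normalized log2 values made with GeneMaths XT. The labels say that cHF+ROSI animals were hybridised in duplicate across studies, of which the arrays of this series were used. The reference pool also held RNA of the other diets, rosiglitazone at a higher dose among them. 0 columns of values were left unused for want of a sample, and the table of the authors served as an alternative. Its column medians lay between 9.47 and 9.49 and its 8 cHF+ROSI columns correlated with the mean Cy5 signal at 0.981 to 0.996, so that its values were taken as log2 Cy5 levels, with the centring not given in the sources used here. Its 8 cHF+F+ROSI columns could be tied to the group but not to a mouse.

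Spots with a local background over 5 times the median of their array in either channel (0 to 48 spots an array, on 10 arrays, none of the 21 probes) were left out first. With them, the background level estimated by normexp reached -991.3 and was under -50 on 5 arrays, and without them it lay between -4.79 and 14.13. The choice rested on this level, not on any call. Median signals were then corrected by normexp (offset 50, all remaining spots), control spots, spots flagged as outliers and probes under 2 times background on average in either channel were dropped. Loess within arrays was applied to log2(Cy5/Cy3), and repeated spots were averaged. Diets were compared in limma 3.58.1 (lmFit, eBayes; R 4.3.3), and p-values were adjusted after Benjamini-Hochberg over all probes kept. An offset brings the log ratios of weak probes closer to 0. The chain was tested on the same arrays with the group labels mixed and the Cy5 signal of a set of probes doubled in a mixed group. Smaller changes were not tried. Exact permutation tests used all 12870 splits of the mice, and relations 1e+05 permutations.

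The genes, the lists and the tests were chosen with earlier results of these data known. Named genes were all 9 genes with every probe, list genes at an unadjusted p of up to 0.05, Ppargc1a, Hdac3, Med1 and Esrra in any case, and the 3 probes most like each gene; a few genes that this rule names are not reported here. The brightest probe leads where a gene has several. Strands of genes came from the RefSeq table of GRCm38.p6. Exons and introns were not assigned, since no annotation of mm8 was used here. No strand was assigned to Ppargc1b, so that its 3 probes could not be checked against it, and no position is given for them. Precision is limited by the 16 arrays. The highest correlation between the ratios of 2 arrays was 0.916, so no array was counted as a repeat. The labels call the Cy5 samples individual, and each was taken as 1 mouse. Alternatives covered background, normalization, channel, filters, the table of the authors, blocks, weights, the methods' t-test, outlier flags and each array left out.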

Additional observations from a re-analysis of the deposited data

Results flagged for a closer look

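Among 52 sets of 8 values (each probe, each marker list and the Nrip1 pair, by group), 2 held a value far from the other 7, where chance alone would give 2.6. Both belong to cHF+F+ROSI replicate 2. Its Rxra log2 ratio by A_52_P188139 was 0.64, and the nearest cHF+F+ROSI mouse had 0.26. The mean log2 ratio of its slow-fibre markers was -2.27, and the nearest mouse had -0.61.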

How the results depend on the processing

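Of 414 recomputed values, 379 kept their direction and side of the threshold or, for counts, stayed within 1.5 times. A result over the threshold as reported had only to stay over it with the same sign. The Nrip1 pair was judged by its adjusted p, 0.409 as reported, so settings in which its groups overlapped were also counted as kept. The 379 therefore do not measure how firm a difference was. The number of the 19 probes at an unadjusted p of up to 0.05, 1 as reported, was 3 with processed signals, 2 with median centring, 3 with the slide as a block and 3 with array weights. Of all 19398 probes, 2037, 1999, 1917 and 2520 had such a p in these settings, beside 1993 as reported. With the replicate number as a block (replicate block) it was 2 of the 19 and 1681 of all probes. Leaving out 1 array gave 1 to 4 (3 without cHF+ROSI replicate 7 or cHF+F+ROSI replicate 3, 2 without cHF+ROSI replicate 2 or cHF+F+ROSI replicate 7, and 4 as named above). Of all probes, 2180 had such a p without cHF+ROSI replicate 7, 1970 without cHF+ROSI replicate 2 and 2214 without cHF+ROSI replicate 8. The number past an adjusted p of 0.05, 0 as reported, was 1 with array weights and 0 to 1 with 1 array left out. The difference turned to 0.0067 for Rxrb with array weights, to 0.047 for Ppara without cHF+ROSI replicate 1 and cHF+F+ROSI replicate 2, and to 0.021 for Ncor1 by the mean of its 6 probes, 2 of them on the opposite strand. With 1 array left out, Pparg ran from -0.049 to 0.079 and Ppard from -0.0065 to 0.028. The cause of these changes was not tested. With the high-background spots kept, an alternative chosen after seeing the data, 3 of 19398 probes passed adjustment instead of 16. With array weights 143 did, with the replicate block 6, in Cy5 alone 8, by the methods' t-test 7, and with 1 array left out 5 to 24. Same-numbered mice did not deviate together (r of -0.27 to 0.34, the best match for 0 of 8 numbers). These correlations gave no sign that the numbers pair the samples, but cannot exclude it. The weak Cy3 signal limits the probes near background, above all Ppard.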
